A study of Homo sapiens with 6 samples.

Results

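The genes described here encode 10 enzymes that build serine, proline and asparagine or carry the one-carbon units of serine onto folate: PHGDH, PSAT1, PSPH, SHMT1, SHMT2, MTHFD2, MTHFD1L, ASNS, ALDH18A1 and PYCR1. They were chosen from the amino acid and one-carbon enzymes known as targets of the stress factor ATF4, with the measured difference between 15EN and VC arrays already in view. Of the 10, 9 have a named probe set among the 17687 genes measured. SHMT1, the cytosolic serine hydroxymethyltransferase, has none in the annotation used here and is given no value. The arrays were 1-colour Affymetrix whole-transcript arrays of SH-SY5Y, an established cell line from a human neuroblastoma. One group of 3 is labelled 15EN, an abbreviation the labels do not spell out, and the other group of 3 is the vehicle control, VC. Replicates 1, 2 and 3 of each group come from passages 33, 34 and 35 in titles and source names, while all descriptions give passage 33. The treatment text is the same for all 6 samples and gives differentiation with atRA (all-trans retinoic acid) over 96 h and a bioactive compound at 15 µM, and the series title names eurycomanone from Eurycoma longifolia roots. Apart from the passage, nothing in the labels says that the arrays of a group are separate cultures, so errors and p-values measure only how much these arrays differ, and part of that may be technical.

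Serine is made from a glycolytic intermediate in 3 steps. PHGDH oxidizes 3-phosphoglycerate, PSAT1 transfers an amino group onto the product, and PSPH removes the phosphate. Serine hydroxymethyltransferases then split serine into glycine and a one-carbon unit held by folate, and in mitochondria SHMT2, MTHFD2 and MTHFD1L together turn that unit into formate, which leaves for nucleotide synthesis in the cytosol. ASNS makes asparagine from aspartate and glutamine. ALDH18A1 begins proline synthesis from glutamate, and PYCR1 completes it in mitochondria. Translation of ATF4 rises when eIF2 is phosphorylated, and the factor binds C/EBP-ATF response elements in many amino acid genes.

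Promoter windows of RefSeq (build GRCh38.p14, 250 bases before to 50 after a transcript start) were matched by symbol for 7 of the 10 genes, in 11 windows. They were searched on both strands for TGATGNAA, the core of the C/EBP-ATF element, and for the E-box CACGTG bound by MYC and related factors. The first motif was found in windows of 2 of the 7 genes, MTHFD1L and ASNS. It is held by 3.62% of all 35116 windows and by 3.59% of the 14250 measured genes with a window. The genes were chosen as known ATF4 targets, so nothing is read from 2 of 7 beside these shares. Both sites are shown in 30 bases because one belongs to the gene with the largest positive difference and the other to the textbook ATF4 target; capitals mark the motif.
MTHFD1L, chr6:150866346-150866375, plus strand: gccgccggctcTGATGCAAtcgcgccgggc
ASNS, chr7:97872458-97872487, minus strand: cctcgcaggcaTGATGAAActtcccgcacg
The MTHFD1L site lies in the windows of 3 of its transcript starts, at -129 to -122 from the most downstream of these 3 and -90 to -83 from the middle one. From the most upstream of these starts it lies inside the transcript, at bases 25 to 32. A further MTHFD1L window does not hold the motif. The ASNS site lies at -68 to -61 from 1 of its 2 starts. The motif was not found in the windows of PHGDH, PSAT1, MTHFD2, ALDH18A1 and SHMT1, which says only that these letters are absent there. The E-box was found for 2 of the 7 genes, MTHFD1L and ALDH18A1, and in 7.26% of all windows and 10.8% of measured genes.

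The upstream sequences of PHGDH and PSAT1, the genes with the lowest differences among the 9, are given whole up to the base before the start. Capitals mark CCAAT, a short box near many promoters, which was picked for the search after these sequences had been read. It was found on either strand in windows of 5 of the 7 genes (PHGDH, PSAT1, MTHFD2, MTHFD1L and SHMT1), in 34.6% of all windows and in 42.3% of measured genes.
PHGDH, chr1:119711684-119711933, plus strand: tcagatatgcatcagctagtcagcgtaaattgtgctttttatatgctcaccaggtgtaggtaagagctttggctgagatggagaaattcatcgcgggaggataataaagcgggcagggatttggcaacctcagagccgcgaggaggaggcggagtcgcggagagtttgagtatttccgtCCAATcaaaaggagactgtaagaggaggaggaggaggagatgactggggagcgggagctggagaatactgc
PSAT1, chr9:78296875-78297124, plus strand: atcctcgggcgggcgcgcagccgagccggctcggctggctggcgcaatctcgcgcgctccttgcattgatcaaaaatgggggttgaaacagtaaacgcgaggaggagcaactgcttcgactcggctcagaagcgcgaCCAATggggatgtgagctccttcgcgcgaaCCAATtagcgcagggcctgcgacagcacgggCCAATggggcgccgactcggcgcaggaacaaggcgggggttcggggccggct
PHGDH has 1 such box, at -71 to -67, and PSAT1 has 3, at -113 to -109, -83 to -79 and -52 to -48. The GC content of the 250 bases was 51.2% for PHGDH and 65.6% for PSAT1, against a median of 58% over all windows.

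Comparison of the 15EN with the VC arrays showed no common direction for the 9 measured enzymes. PHGDH, the entry step of serine synthesis, was 3.28-fold lower in 15EN, and MTHFD1L, the last step of mitochondrial formate production, was 2.24-fold higher. The other 7 had log2 differences between -1.03 and 0.38. The median over the 9 was 0.04 on the log2 scale, beside 0.01 over all genes, with 5 genes above 0 and 4 below. In these bulk RNA samples a smaller share of cells with a transcript and less transcript per cell cannot be told apart. By limma, 1 of the 9 was higher and 1 lower at adjusted p under 0.05, where 21.4% of all genes passed (12.3% higher and 9.09% lower). The arrays of the groups did not overlap for the same 2 genes, beside 36.3% of all genes. The genes were chosen with this contrast known, so these counts are a description and nothing is read from them.

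**Figure D1:**
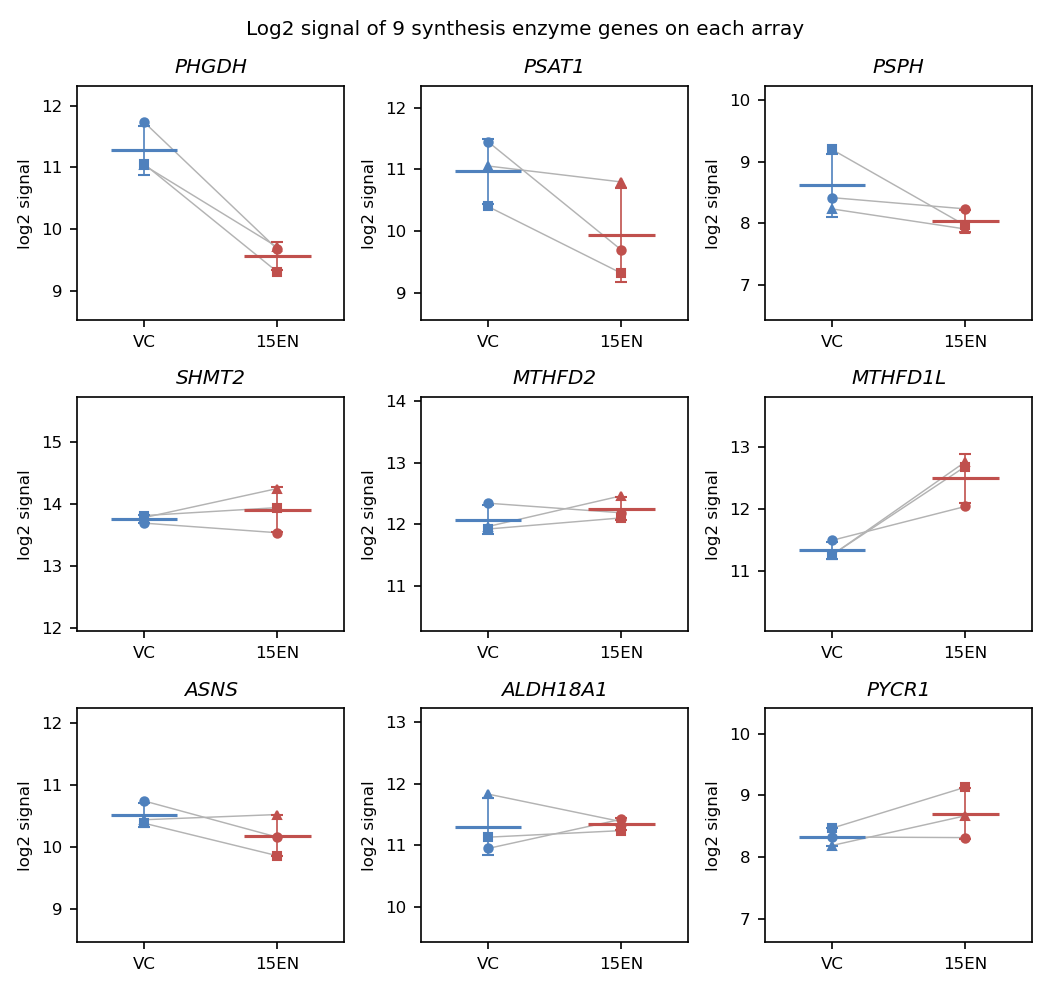
Log2 signal (vertical axes, each spanning the same range of log2 units around its own gene) of the 9 enzymes in VC (blue) and 15EN (red). Points are single arrays (circles replicate 1, squares replicate 2, triangles replicate 3), grey lines join same-numbered arrays, and bars give the mean and SD over 3 arrays. The groups are apart for PHGDH and MTHFD1L and overlap for the other 7.

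The serine enzymes were all lower in 15EN in each same-numbered pair. The log2 signal of PHGDH was 9.68, 9.31 and 9.71 for replicates 1, 2 and 3 of 15EN, whereas the VC arrays had 11.74, 11.06 and 11.04. Every 15EN array lay below every VC array, and the 3 pair differences ran from -2.06 to -1.33. The 15EN mean was 9.56 ± 0.22 and the VC mean 11.28 ± 0.40 (SD, n = 3 each). The difference of these means was -1.71 with an SE of 0.25 in the limma fit, at percentile 2.06 of the differences of all genes. PSAT1 had log2 signals of 9.69, 9.32 and 10.80 in 15EN against 11.45, 10.40 and 11.05 in VC. The groups overlapped because 15EN replicate 3 lay above VC replicate 2. The PSAT1 difference was -1.03 ± 0.39 (SE), with pair differences of -1.76, -1.08 and -0.26. With 1 array left out it ran from -0.72 without 15EN replicate 2 and -0.79 without VC replicate 1 to -1.46 without 15EN replicate 3. PSAT1 did not pass the threshold with all arrays and group as the only term. It passed beside PHGDH, for 2 lower genes, in the fit with a replicate block. The same held without 15EN replicate 3 and without both arrays of replicate 3. PSAT1 has 4 pseudogenes named after it in RefSeq and PSPH has 1; whether they add to the signal was not tested.

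PSPH, which releases free serine, had log2 signals of 8.23, 7.97 and 7.91 in 15EN and of 8.42, 9.20 and 8.23 in VC. VC replicate 2 stood above the other VC arrays, and 15EN replicate 1 was level with the lowest VC array. The difference was -0.58 ± 0.27 (SE) with all arrays and -0.29 without VC replicate 2. The medians of the 3 serine enzymes in the pairs were -1.76, -1.23 and -0.33, so that the pair of replicate 3 showed the smallest shift. 15EN replicate 3 also stood apart over all probe sets, correlating at 0.979 and 0.980 with 15EN replicates 1 and 2, which correlated at 0.991 with each other. Arrays within VC correlated at 0.990 to 0.992. With the VC arrays, 15EN replicate 3 correlated at 0.971 to 0.973, and 15EN replicates 1 and 2 at 0.966 to 0.968. Without 15EN replicate 3 the difference was -1.79 for PHGDH and -0.52 for PSPH.

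**Figure D2:**
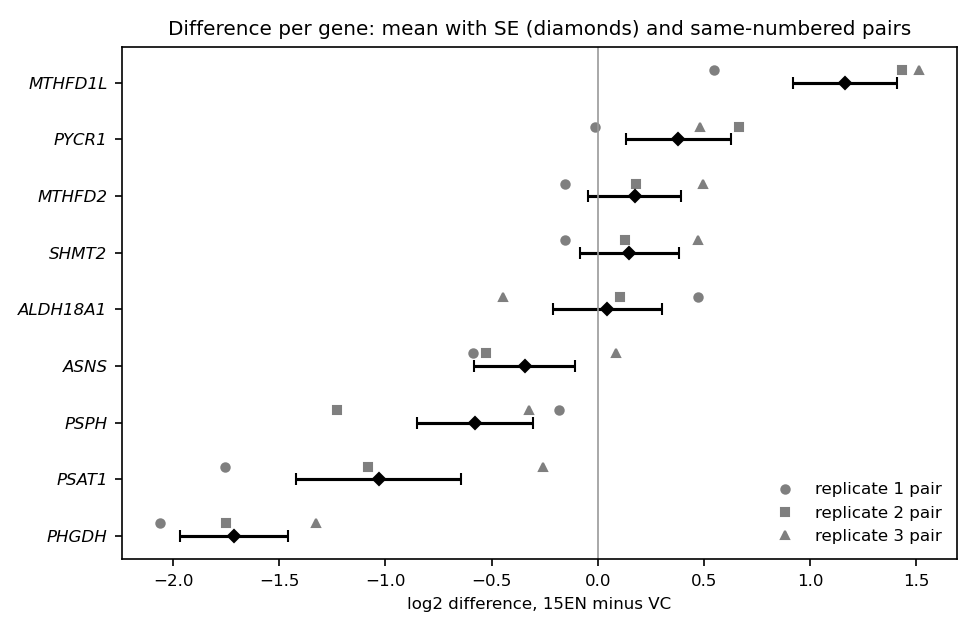
Log2 difference of 15EN minus VC (horizontal axis) for the 9 enzymes (vertical axis). Diamonds with bars are the difference and its SE from all 6 arrays, and grey symbols are the 3 same-numbered pairs. PHGDH, PSAT1 and PSPH lie below 0 and MTHFD1L above 0 in all 3 pairs, while the other 5 have pairs on both sides of 0.

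Of the mitochondrial one-carbon enzymes, only MTHFD1L had groups that did not overlap. All 3 had mean differences above 0, but those of SHMT2 and MTHFD2 were smaller than their SE. MTHFD1L, the formate-releasing synthetase, had log2 signals of 12.04, 12.69 and 12.77 in 15EN and 11.49, 11.26 and 11.25 in VC. All 15EN arrays were above all VC arrays, with 15EN replicate 1 the nearest to them. The means were 12.50 ± 0.40 and 11.33 ± 0.14 (SD, n = 3), the difference was 1.17 ± 0.24 (SE), and the pairs gave 0.55, 1.43 and 1.51. SHMT2, which feeds the mitochondrial route from serine, had 13.54, 13.94 and 14.25 in 15EN and 13.69, 13.81 and 13.78 in VC. The VC arrays lay close together, and the 15EN arrays fell on both sides of them. The SHMT2 difference was 0.15 ± 0.23 (SE), and ran from -0.02 without 15EN replicate 3 to 0.34 without 15EN replicate 1. MTHFD2, the dehydrogenase and cyclohydrolase between the other two, had 12.19, 12.10 and 12.46 in 15EN and 12.34, 11.92 and 11.96 in VC. The groups overlapped, and the difference was 0.17 ± 0.22 (SE), or 0.07 to 0.31 with 1 array left out. MTHFD2 has 7 pseudogenes named after it, whose share of the signal was not tested.

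ASNS, which consumes aspartate and glutamine to make asparagine, had log2 signals of 10.16, 9.86 and 10.52 in 15EN against 10.75, 10.38 and 10.44 in VC. The groups overlapped through 15EN replicate 3, whose pair differed by 0.08 where the other pairs gave -0.59 and -0.53. The ASNS difference was -0.34 ± 0.24 (SE), and ran from -0.18 without 15EN replicate 2 to -0.52 without 15EN replicate 3. ASNS has 5 pseudogenes named after it in RefSeq. Of the proline enzymes, ALDH18A1 had 11.42, 11.24 and 11.39 in 15EN and 10.95, 11.13 and 11.83 in VC. Its VC arrays spread more widely than its 15EN arrays, and its difference was 0.04 ± 0.26 (SE), which turned to -0.13 without VC replicate 1 and -0.04 without VC replicate 2 and was 0.31 without VC replicate 3. PYCR1 had 8.32, 9.13 and 8.67 in 15EN and 8.33, 8.47 and 8.19 in VC. Replicate 2 and 3 of 15EN were above all VC arrays and replicate 1 was among them, for a difference of 0.38 ± 0.25 (SE), or 0.16 without 15EN replicate 2 and 0.57 without 15EN replicate 1. The negative controls served as a mark for dim signal, and their 90th percentile lay between 7.41 and 7.99 on the 6 arrays. All 9 enzymes were above this mark on every array.

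The split between PHGDH and MTHFD1L remained at every scaling tried, but the sign of the genes near 0 did not. The hybridization controls were dimmer in the 15EN arrays (mean log2 signal 10.31 to 10.60) than in VC (11.22 to 11.37). Whether the amount of RNA differed between the groups was not tested. When arrays were scaled to equal controls, every gene shifted up by the same constant and the median gene stood at 0.88, with 12150 genes higher and 437 lower in place of 2179 and 1608. On that scale PHGDH was at -0.84, PSAT1 at -0.16, PSPH at 0.29, ASNS at 0.52, ALDH18A1 at 0.91, SHMT2 at 1.02, MTHFD2 at 1.04, PYCR1 at 1.25 and MTHFD1L at 2.03. Against the value of 0.88 these keep their distances from the median gene. ALDH18A1 changed sign after quantile normalization (-0.12) and removal of a brightness trend (-0.12). After the same steps SHMT2 stood at 0.06 and 0.02, and MTHFD2 at 0.01 and 0.01.

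**Figure D3:**
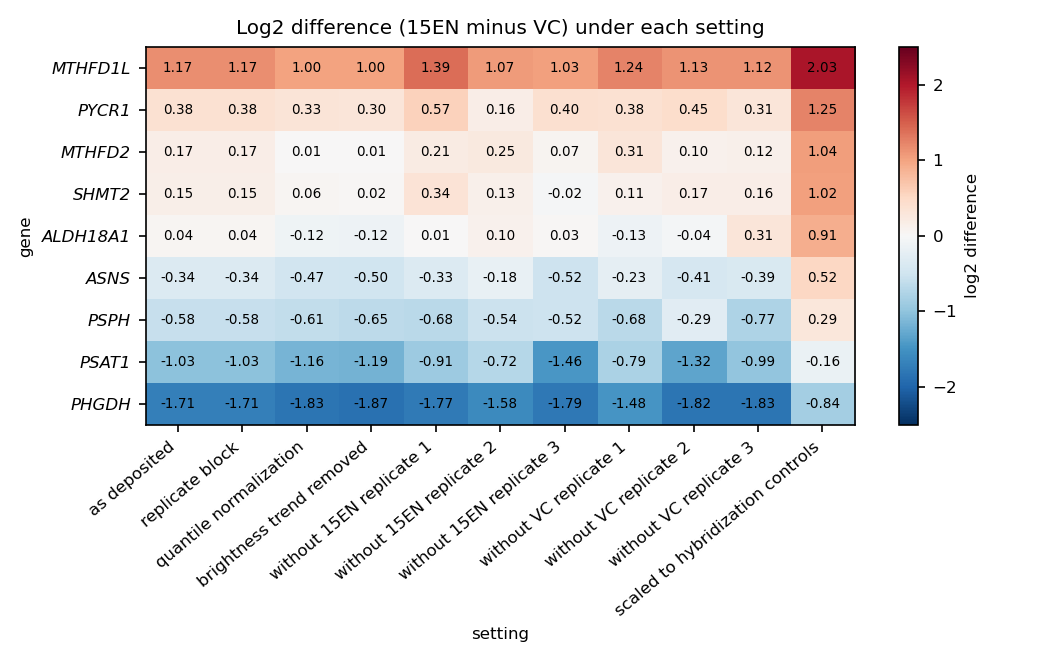
Log2 difference of 15EN minus VC (number and colour) for each of the 9 enzymes (rows) under each setting (columns), from the values as deposited to scaling by the hybridization controls. PHGDH stays negative and MTHFD1L positive in every column, and in the last column all genes shift up by the same constant.

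The profiles nearest to each of these 2 genes were looked up over the 6 arrays, as the Euclidean distance between gene-centred log2 values. For PHGDH they were TMEFF1 (distance 0.27 log2 units), GNG2 (0.29), a G protein gamma subunit, and SERPINF1 (0.32), a secreted serpin. For MTHFD1L they were EFL1 (0.23), a GTPase of ribosome maturation, RICTOR (0.24), a subunit of mTOR complex 2, and TSPAN4 (0.25), a tetraspanin. The distances are a description with no test. The calls of EFL1 and TSPAN4 were lost without 15EN replicate 2, VC replicate 2 or VC replicate 3 (adjusted p of 0.0603 to 0.0875 by limma).

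ATF4 itself and several genes of its response were higher in 15EN than in VC. ATF4 mRNA had log2 signals of 12.53, 13.13 and 12.70 in 15EN and 10.87, 10.38 and 10.33 in VC, with no overlap. ATF4 mRNA rose by 2.27 ± 0.25 (SE, adjusted p = 0.000325 by limma). ATF4 protein was not measured, and a link of this rise to the values of the 9 enzymes was not tested. Of 20 measured regulators, partners and targets of the response, ATF4 among them, 9 rose and 2 fell. These shares of 45% and 10% stand against 12.3% and 9.09% of all genes. The median of the 20 was 0.88, and for short they are called ATF4 regulators below. This list and those below were chosen with earlier results of these data known, so their shares are a description. DDIT3, which encodes CHOP, rose by 2.78 ± 0.37 (adjusted p = 0.00083 by limma) from a level below the negative control percentile in VC. DDIT3 was also below that percentile in 15EN replicate 3, at 7.22. ATF3 rose by 4.32 ± 0.56 (adjusted p = 0.000669 by limma) from a level below the percentile in VC. The sizes of these 2 rises are therefore uncertain. The phosphatase subunits PPP1R15A (1.84 ± 0.32) and PPP1R15B (1.66 ± 0.23), which reverse eIF2 phosphorylation, rose with adjusted p of 0.00287 and 0.00102, as did EIF2S1, eIF2 alpha itself (1.40 ± 0.23, adjusted p = 0.00206).

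CHAC1, a glutathione-degrading ATF4 target, rose by 1.49 ± 0.36 (adjusted p = 0.0153 by limma), a call lost without 15EN replicate 2 (0.0638), VC replicate 1 (0.0595) or VC replicate 3 (0.0723). CHAC1 was below the negative control percentile on 2 of 3 VC arrays and TRIB3 on all 3, so the sizes of both differences are uncertain. TRIB3, a pseudokinase of the same response, differed by 1.05 ± 0.38 (adjusted p = 0.0775 by limma), and passed in the fit with a replicate block (0.0347) or without 15EN replicate 3 (0.0169). The TRIB3 difference was 0.55 without 15EN replicate 2, whose log2 signal of 9.11 stood above the 7.64 and 7.53 of the other 15EN arrays. MYC, another known activator of serine and folate genes, differed by 0.70 ± 0.36 (adjusted p = 0.213), and by 0.22 without 15EN replicate 2. MYCN was below the negative control percentile on all arrays (0.01 ± 0.23, adjusted p = 0.981). The 2 genes of the ATF4 regulator list that fell, named after their values were seen, were DDIT4 (-1.36) and EIF2AK2 (-0.85). The count of lower genes in that list was 0 after scaling to the hybridization controls and 1 without VC replicate 2.

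Transporters and tRNA synthetases known as ATF4 targets were mixed, with 5 of 19 higher and 2 lower (26.3% and 10.5%, against 12.3% and 9.09% of all genes) and a median of 0.19. SLC3A2, the shared heavy chain of amino acid exchangers, rose by 2.86 ± 0.26 (adjusted p = 0.000183 by limma), and the cystine transporter SLC7A11 by 2.76 ± 0.40 (adjusted p = 0.00121). The synthetases YARS1 (1.48 ± 0.25) and TARS1 (1.03 ± 0.20) rose as well, with adjusted p of 0.00278 and 0.00539. Without 15EN replicate 3 the count of higher genes was 9. The 2 lower genes were SLC6A9, a glycine transporter (-1.02), and SLC1A5, which carries glutamine (-0.87), both named after their values were seen, and the lower count was 0 after scaling to the hybridization controls. The count of lower genes was 1 without 15EN replicate 1 or any VC replicate.

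**Figure D4:**
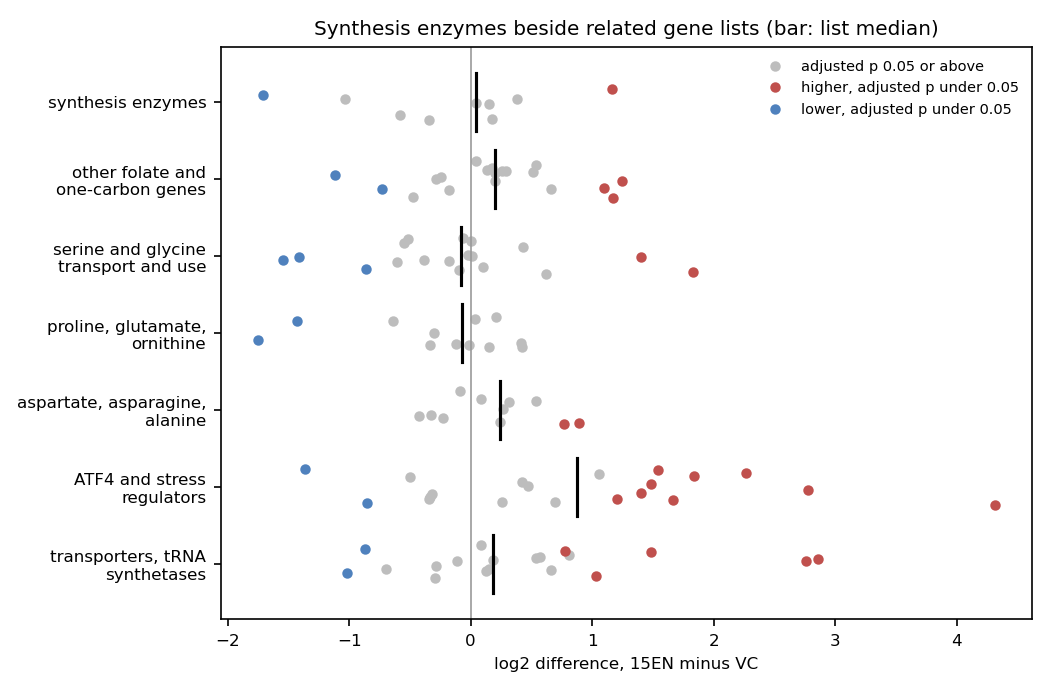
Log2 difference of 15EN minus VC (horizontal axis) for each gene of 7 groups (vertical axis), the 9 synthesis enzymes at the top. Points are genes, coloured where adjusted p was under 0.05 (red higher, blue lower), and black bars are medians. The median of the ATF4 regulators lies at 0.88, and those of the other groups between -0.08 and 0.24.

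Of 19 other folate and one-carbon genes, 3 rose and 2 fell, with a median of 0.20. These shares of 15.8% and 10.5% lie near the 12.3% and 9.09% of all genes. SLC25A32, which carries folate into mitochondria, rose by 1.09 ± 0.26 (adjusted p = 0.0124 by limma), a call lost without 15EN replicate 1 (0.0503) or VC replicate 1 (0.0592). MTRR, which keeps methionine synthase active, rose by 1.17 ± 0.20 (adjusted p = 0.00275). ATIC, a folate-dependent enzyme of purine synthesis, rose by 1.24 ± 0.32 (adjusted p = 0.0194) and missed the threshold whenever 1 array other than 15EN replicate 3 was left out (0.0557 to 0.0863). GGH, a folate hydrolase, fell by 1.12 (± 0.25, adjusted p = 0.00972) at levels below the negative control percentile on all arrays, and missed it without VC replicate 3 (0.0512). ALDH1L2, which oxidizes mitochondrial formyl-folate, fell by 0.73 (± 0.23, adjusted p = 0.0443), missed the threshold in the same 5 fits (0.0543 to 0.177), and stood at 0.14 after scaling to the hybridization controls. ALDH1L2 was below the negative control percentile on 5 of 6 arrays, all 3 of 15EN among them, so the size is uncertain. The relatives of MTHFD2 did not pass, with MTHFD1, the cytosolic trifunctional enzyme, at 0.13 ± 0.24 (adjusted p = 0.768, and -0.02 after quantile normalization) and MTHFD2L at 0.66 ± 0.24 (adjusted p = 0.0803, and 0.0133 without 15EN replicate 3). MTHFD2L was below that percentile on 5 of 6 arrays, all 3 of VC among them, so its size is uncertain too. TYMS, thymidylate synthase, differed by 0.26 ± 0.24 (adjusted p = 0.532). Without 15EN replicate 3 the counts were 5 higher and 3 lower. Leaving out 15EN replicate 1 or VC replicate 1 gave 1 higher and 1 lower, leaving out 15EN replicate 2 or VC replicate 2 gave 2 and 1, and leaving out VC replicate 3 gave 2 and 0.

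Genes that carry or use serine and glycine had 2 of 18 higher, 3 lower (11.1% and 16.7%, against 12.3% and 9.09% of all genes) and a median of -0.08. GLDC, the glycine-splitting subunit of the glycine cleavage system, had log2 signals of 8.76, 8.07 and 8.37 in 15EN and 6.89, 6.87 and 5.96 in VC. It rose by 1.83 ± 0.30 (adjusted p = 0.00217 by limma) from levels below the negative control percentile in all VC arrays, so the size is uncertain. CTH, which makes cysteine from cystathionine, rose by 1.40 ± 0.20 (adjusted p = 0.00101) within that dim range in both groups, and CBS, the step before it, differed by 0.62 ± 0.25 (adjusted p = 0.112, and 0.0447 without VC replicate 1). MAT2A, which makes S-adenosylmethionine, fell by 1.41 (± 0.30, adjusted p = 0.00742), and SPTLC2, which joins serine to palmitate, by 0.86 (± 0.20, adjusted p = 0.0124), a call lost without VC replicate 2 (0.0647). SFXN3 fell by 1.55 (± 0.40, adjusted p = 0.0211), a call lost without VC replicate 1, 2 or 3 (0.0545 to 0.0835), and by 1.01 without 15EN replicate 1. SFXN1, the mitochondrial serine transporter, differed by -0.61 ± 0.21 (adjusted p = 0.0703), and passed without 15EN replicate 3 (0.0352) and after quantile normalization. After scaling to the hybridization controls SPTLC2 stood at 0.01, MAT2A at -0.54 and SFXN3 at -0.68, none of them past the threshold. The lower count was 2 without VC replicate 1 or 3 and 1 without VC replicate 2.

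On the proline side, 0 of 12 genes of proline, glutamate and ornithine metabolism rose and 2 fell (0% and 16.7%, against 12.3% and 9.09% of all genes). Their median was -0.07, and 1 rose without 15EN replicate 3. An unadjusted p under 0.05 by limma was held by 3 of the 12, beside 5697 of all 17687 genes. OAT, which links ornithine to the proline precursor, had log2 signals of 8.99, 8.51 and 8.89 in 15EN and 10.50, 10.61 and 10.54 in VC. It fell by 1.75 (± 0.21, adjusted p = 0.000511 by limma), with no overlap of the groups. P4HA2, a collagen prolyl hydroxylase, fell by 1.43 (± 0.30, adjusted p = 0.00726) and stood at -0.56, no longer past the threshold, after scaling to the hybridization controls. The paralogue PYCR3 (0.15 ± 0.26, adjusted p = 0.754) and the breakdown enzymes PRODH (0.21 ± 0.25, adjusted p = 0.649) and ALDH4A1 (-0.30 ± 0.27, adjusted p = 0.501) did not pass, with signal below the negative control percentile on 3, 2 and 6 arrays, and neither did glutamine synthetase, GLUL (-0.02 ± 0.20, adjusted p = 0.971). Of 11 genes of aspartate, asparagine and alanine metabolism, 2 rose and 0 fell (18.2% and 0%, against 12.3% and 9.09% of all genes). Their median was 0.24, and 3 of the 11 had an unadjusted p under 0.05 by limma, beside the same 5697 of all 17687 genes. GOT1, the cytosolic aspartate aminotransferase, rose by 0.89 ± 0.22 (adjusted p = 0.0148 by limma), a call lost without 15EN replicate 1 (0.0605), VC replicate 2 (0.0669) or VC replicate 3 (0.0556). ASL, argininosuccinate lyase, rose by 0.77 ± 0.24 (adjusted p = 0.046) and missed the threshold without any one of the 6 arrays (0.0523 to 0.178). GOT2, the mitochondrial aminotransferase, differed by 0.31 ± 0.21 (adjusted p = 0.359). The higher count was 1 or 0 without any one of the 6 arrays.

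Markers of the cell line were checked beside these values. Of 12 measured genes of adrenergic neuroblastoma, 7 were above the negative control percentile on all arrays, among them HAND2, GATA3 and ISL1, while TH and CHGA were below it on all arrays. The mean log2 signal of the 12 was 10.69 to 10.90 in VC and 9.65 to 9.72 in 15EN. By limma, 8 of the 12 were lower and 0 higher at adjusted p under 0.05 (66.7% and 0%, against 9.09% and 12.3% of all genes). Of these 8, CHGA lay in the dim range on all arrays, DDC on 5 arrays and DBH on 2 of 15EN. All 7 measured markers of Schwann cells and other glia were below the percentile on all arrays (group means 4.28 to 4.64 in 15EN and 4.41 to 4.59 in VC). Of 9 fibroblast markers, 5 were above it on all arrays, including PDGFRA, PDGFRB and COL1A2. In the same fit 0 of the 9 were higher and 2 lower (0% and 22.2%, against 12.3% and 9.09% of all genes). The mean of the 9 was 8.60 to 9.19 in 15EN and 9.05 to 9.43 in VC. The marker counts come only from the fit of the deposited values and were not repeated at other scalings or with arrays left out. The part of the neuroblastoma and fibroblast genes in the enzyme values was not tested.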

How the data were processed

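The values are log2 signals, 1 per probe set and array, as deposited by the authors. The submitters' processing notes name the Transcriptome Analysis Console; the sources used here name no version, normalization or genome build, and the scale was judged from the values. Of 24351 probe sets, 2903 are controls and 17709 carry 1 symbol in the platform annotation (3739 are unnamed here). All 17709 Entrez identifiers matched RefSeq. The probe set of highest mean was kept per gene, which left 17687 genes without a filter on dim ones.

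The test of 15EN against VC was limma's (version 3.58.1, R 4.3.3; lmFit and eBayes, group as the only term, two-sided, Benjamini-Hochberg over all genes, threshold 0.05). The fit was run on simulated data with independent noise and a single spread per gene. Those data held no pairing and no outlying array, so the run does not cover these features. Dim was judged by the 90th percentile of 612 negative controls. The number of arrays limits the precision. The enzymes and lists were chosen with earlier results of these data known. Named are all enzymes, 25 set genes (where measured), up to 4 further called genes per list by smallest p, and 3 nearest profiles for each of 2 enzymes.

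Replicate numbers share a passage, and same-numbered deviations from group means correlated at 0.229, 0.162 and 0.133 across genes, so they were taken to pair the arrays, with the replicate block as an alternative. Others were quantile normalization, scaling to 4 hybridization controls, loess removal of a brightness trend, leaving out the dimmest 33.3% of genes, a trended robust prior, and dropping single arrays or same-numbered pairs.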

Additional observations from a re-analysis of the deposited data

How the results depend on the processing

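With the replicate block, 2 enzymes were lower in place of 1, and no other count of enzymes or of a pathway list left its range of 1.5 times. Scaling to the hybridization controls, which adds the same constant to every gene, gave 12150 higher and 437 lower genes over all, 5 higher enzymes, and a median of 0.91 over the 9 enzymes. Under that scaling the higher and lower counts were 14 and 0 for folate genes, 11 and 0 for serine and glycine use, 7 and 1 for proline and glutamate, 14 and 0 for ATF4 regulators, and 14 and 0 for transporters and synthetases, with 9 higher for aspartate and asparagine. It also turned the sign of ALDH4A1 (0.56), GLUL (0.85), ALDH1L2 (0.14), SFXN1 (0.26) and SPTLC2 (0.0058). Quantile normalization and removal of the brightness trend moved the enzyme median to -0.12 and -0.12, gave 5 and 6 lower genes of serine and glycine use and 1 and 1 higher gene of aspartate and asparagine, and turned MTHFD1 to -0.020 and -0.027. The trended prior left 1 lower folate gene. The causes of these changes were not tested, apart from the constant added by scaling.

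Leaving out 1 array, or both arrays of a number, gave 526 to 3227 higher and 495 to 2240 lower genes over all (1424, 1301 and 1378 higher without VC replicate 1, 2 and 3), 0 to 1 higher and 1 to 2 lower enzymes, and an enzyme median of -0.17 to 0.12. MTHFD1L was the enzyme lost, without both arrays of replicate 2. Higher and lower counts ran from 0 to 5 and 0 to 3 for folate genes, 2 to 3 and 0 to 4 for serine and glycine use, 0 to 1 and 1 to 2 for proline and glutamate, 4 to 11 and 0 to 2 for ATF4 regulators, and 2 to 9 and 0 to 3 for transporters and synthetases, with 0 to 1 higher for aspartate and asparagine. Signs turned within these ranges for the enzymes ALDH18A1 (-0.17 to 0.31) and SHMT2 (-0.022 to 0.34), and for MYCN (-0.13 to 0.15), PYCR3 (-0.13 to 0.40), PRODH (-0.14 to 0.38), GLUL (-0.083 to 0.072) and MTHFD1 (-0.043 to 0.26). PHGDH stayed between -1.91 and -1.48 and MTHFD1L between 0.99 and 1.47.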
